A study of Mus musculus with 39 samples.

Results

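The Toll-like receptor genes and Myd88 were followed across 39 AB1-HA tumours. The 10 genes were taken by symbol from a table of 39676 genes: Tlr1, Tlr2, Tlr3, Tlr4, Tlr6, Tlr7, Tlr8, Tlr9, Tlr13 and the adaptor gene Myd88. All 10 were found, and all 10 passed the filter on low counts in every comparison. AB1-HA is a murine line of mesothelioma cells with an added influenza haemagglutinin gene, here implanted under the skin of adult BALB/c mice, so that all groups are early tumours of 1 cell line. Tumours were taken on day 9. PBS mice gave 10 tumours, tretinoin mice 9, ICT mice 10 and tretinoin+ICT mice 10. Tretinoin is all-trans retinoic acid, and the labels give 5 daily doses of 5 mg/kg from day 4, although the study's own text also names another dose and another number of doses. ICT is immune checkpoint therapy, here the antibodies anti-CTLA-4 and anti-PD-L1 at 100 ug each, first given on day 7. To read out response, mice carried a tumour on each flank, and the fate of the tumour left in place divided the tretinoin+ICT group into 6 responders and 4 non-responders. The labels do not tie tumours to cages or days, so p-values measure the spread between tumours only.

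Toll-like receptors are sensors of microbial molecules and of molecules released by damaged cells, and in tumours they are carried mainly by macrophages, monocytes, neutrophils, dendritic cells and B cells. TLR1, TLR2, TLR4 and TLR6 sit on the cell surface and read lipopeptides or lipopolysaccharide, whereas TLR3, TLR7, TLR8, TLR9 and TLR13 read nucleic acids inside endosomes. All of them except TLR3 signal through the adaptor MyD88 to IRAK kinases, NF-kB and interferon regulatory factors.

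For 8 of the 10 genes the RefSeq tables on GRCm38.p6 gave the bases before a start site. The 250 bases before the start of 4 genes are shown: Tlr2, lower with tretinoin, Tlr8, with the largest fold change under ICT, Tlr9, with the most kinds of motif, and Myd88, the adaptor. The RefSeq starts of Tlr2 and Myd88 lie inside the GENCODE genes given further on. Capitals mark matches to 5 short motifs searched on both strands: GAGGAA (the core read by PU.1, a factor of macrophages), GAAANNGAA (interferon-stimulated response element), GGGANTTCC (NF-kB), TGANTCA (AP-1) and AGGTCA (a single repeat of the retinoic acid response element).
Tlr2, chr3:83841609-83841858, minus strand: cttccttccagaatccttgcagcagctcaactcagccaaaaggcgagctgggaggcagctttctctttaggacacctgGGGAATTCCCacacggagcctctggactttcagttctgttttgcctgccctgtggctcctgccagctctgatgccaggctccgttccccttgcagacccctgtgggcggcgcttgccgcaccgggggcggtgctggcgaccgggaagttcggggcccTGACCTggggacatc
Tlr8, chrX:167264330-167264579, minus strand: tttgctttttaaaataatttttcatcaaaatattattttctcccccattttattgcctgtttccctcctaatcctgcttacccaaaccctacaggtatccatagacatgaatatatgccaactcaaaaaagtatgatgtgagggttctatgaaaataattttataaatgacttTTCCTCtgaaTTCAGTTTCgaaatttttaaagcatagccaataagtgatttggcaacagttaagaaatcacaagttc
Tlr9, chr9:106222348-106222597, plus strand: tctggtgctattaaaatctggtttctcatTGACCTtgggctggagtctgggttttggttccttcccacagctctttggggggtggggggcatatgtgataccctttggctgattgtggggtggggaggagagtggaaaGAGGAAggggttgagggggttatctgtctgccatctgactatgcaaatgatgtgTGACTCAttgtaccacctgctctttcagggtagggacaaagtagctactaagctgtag
Myd88, chr9:119340019-119340268, minus strand: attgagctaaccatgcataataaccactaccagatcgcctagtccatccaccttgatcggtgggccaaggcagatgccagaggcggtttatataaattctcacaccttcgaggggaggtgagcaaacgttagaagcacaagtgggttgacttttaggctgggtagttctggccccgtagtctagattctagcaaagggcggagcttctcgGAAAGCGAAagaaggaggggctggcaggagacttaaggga
The Tlr2 stretch held an NF-kB match that begins 172 bases before the start and overlaps a match on the opposite strand, and an AGGTCA match on the opposite strand that begins 15 bases before it. A match to the NF-kB letters was present in 1 of the 8 genes and in 1.43% of 32851 promoters of the same length. The interferon-stimulated response element was found in Tlr6, Tlr8 and Myd88, against 7.13% of all promoters, and the Myd88 match began 40 bases before the start. GAGGAA was found in Tlr1, Tlr8, Tlr9 and Tlr13, against 23.3% of all promoters. The 8 genes had 10 promoters, since Tlr1 and Tlr6 each had a further one without any match. Of these 10 promoters 4 held GAGGAA and 3 the interferon-stimulated response element. AGGTCA was found in Tlr2 and Tlr9, against 14.02%, and TGANTCA in Tlr9 alone among these genes, against 6.75%. These matches describe letters in a window and say nothing of binding.

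On GRCm38 the genes lie on 6 chromosomes. Tlr1 (chr5:64924679-64933563) and Tlr6 (chr5:64952031-64960097) are neighbours, as are Tlr8 (chrX:167242696-167264329) and Tlr7 (chrX:167304929-167330558). The others are Tlr2 (chr3:83836272-83841767), Tlr3 (chr8:45395665-45411080), Tlr4 (chr4:66827584-66930284), Tlr9 (chr9:106222598-106226883), Tlr13 (chrX:106143204-106160493) and Myd88 (chr9:119335934-119341411). Tlr1 and Tlr6 share sequence, and 7.89% of the 100-base stretches of Tlr1 also occur in Tlr6, so part of their reads could be placed in either gene. Exons of Myd88 overlap those of Acaa1a on the opposite strand over 290 bases, and exons of Tlr3 overlap the antisense gene Gm45542 over 381 bases. The strand mode of the counting is not given in the sources used here.

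Total counts per tumour ran from 14033046 to 37951183. The mesothelial transcripts that could be measured were low: Upk3b had no count in 36 of 39 tumours, Krt19 reached at most 0.968 CPM (counts scaled to a common library size) and Wt1 at most 5.46 CPM. Msln and Krt18, also listed as mesothelial markers, were not among the genes counted. Transcripts of macrophages were present in every tumour, with a median of 705 CPM for Csf1r, and so was Ptprc, which encodes CD45. The tumours are bulk samples, in which more cells of a type and more RNA per cell cannot be told apart. PBS tumour 14 had the highest level of its group for all 10 genes, and its summed CPM of 9 macrophage and monocyte markers was 3866 against a PBS median of 2438. Tretinoin tumour 33 was highest for 6 of the 10 genes, and ICT tumours 63 and 82 together for 9. At the low end, ICT tumour 85 was lowest for 9 of the 10 genes, PBS tumour 12 for 8 and tretinoin+ICT tumour 44 for 7. Several of the values below depend on the tumours with the highest levels, and are then followed by the value without them. Treatments were not compared again without the 3 low tumours. For a gene in which a left-out tumour was the highest, leaving it out could only lower the mean of its group. The direction of such a change was set by the choice of tumour.

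**Figure D1:**
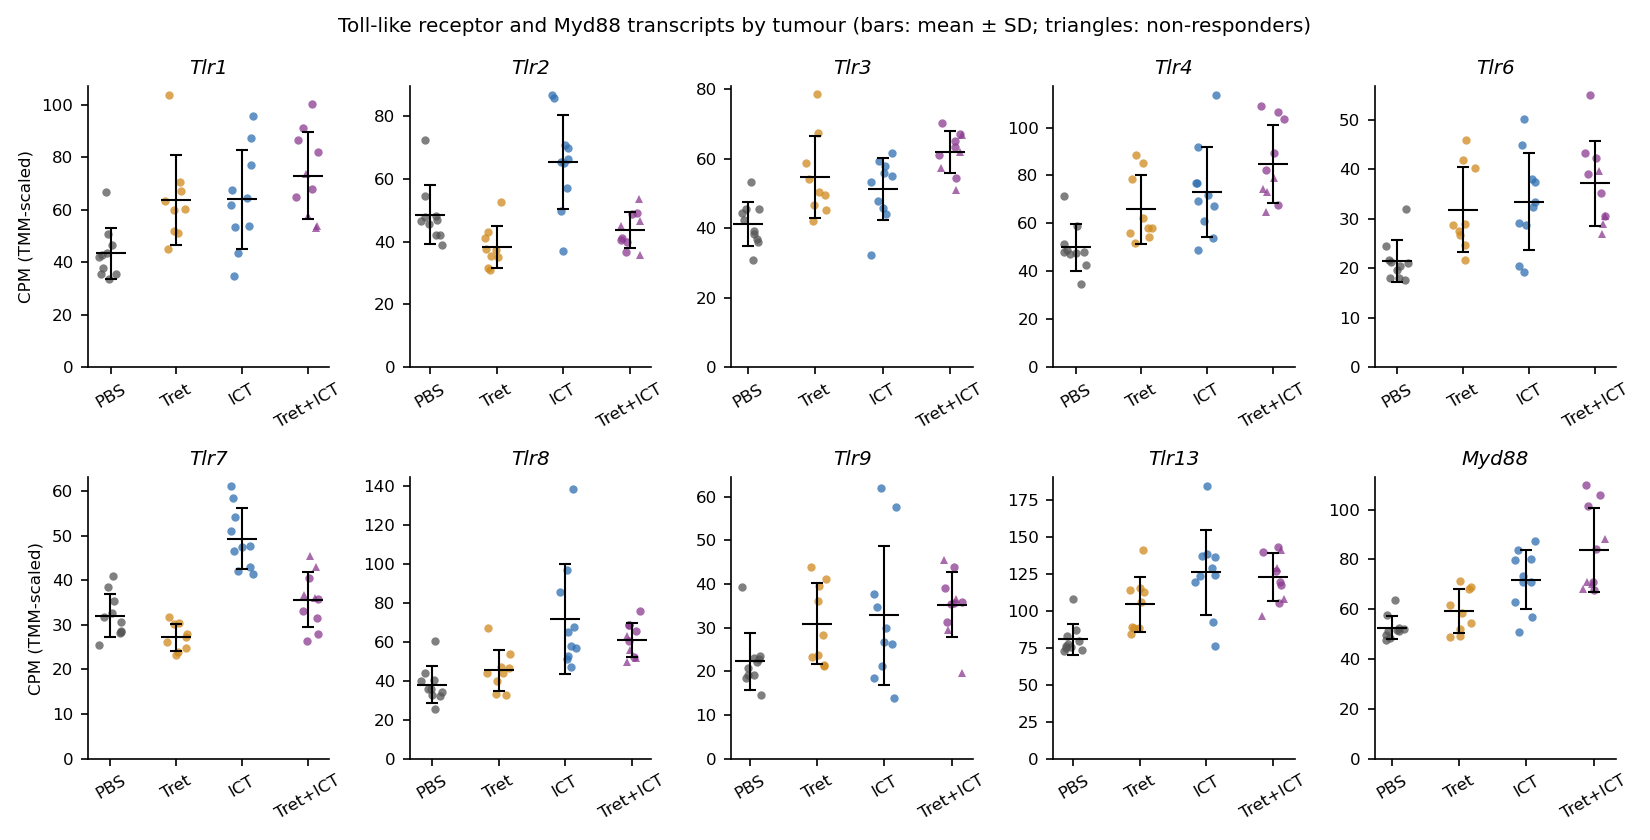
Level of each gene in each tumour in CPM (vertical axis, from 0) for the 4 treatments, with 1 symbol per tumour, triangles for non-responders and bars for the mean ± SD. All ICT tumours lie above every PBS tumour for Tlr7, and all tretinoin+ICT tumours lie above every PBS tumour for Myd88.

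Per length of transcript, Myd88 and Tlr13 were the most abundant of the 10 in PBS tumours, at 20.4 ± 1.82 and 18.7 ± 2.46 RPKM (CPM per kilobase of exon, SD, n = 10). Tlr2 (16.1 ± 3.12 RPKM), Tlr1 (12.96 ± 2.93), Tlr8 (10.6 ± 2.60), Tlr4 (8.99 ± 1.75), Tlr3 (7.91 ± 1.22) and Tlr7 (7.86 ± 1.2) followed in that order. Tlr9 (6.41 ± 1.89) and Tlr6 (5.74 ± 1.14) were lowest, and each gene's range over the 10 tumours overlapped that of its neighbours in this order. The sum over the 9 receptors was 95.3 ± 17.4 RPKM in PBS, 115 ± 20.9 in tretinoin, 144 ± 36.4 in ICT and 138 ± 17.7 in tretinoin+ICT tumours. Between PBS and tretinoin+ICT tumours Tlr2 went from rank 3 to rank 6 of the 10 by mean RPKM, and Tlr7 from rank 8 to rank 10.

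Each gene was then compared between treatments with edgeR's quasi-likelihood test, where a call is an adjusted p (Benjamini-Hochberg, over all genes tested) below 0.05. ICT against PBS asks what the checkpoint antibodies alone change, and 9 of the 10 genes were higher. In that comparison 14.1% of all genes tested were called higher, and the median of the 10 genes was a log2 fold change of 0.56. Tretinoin against PBS had 5 genes higher, where 11.5% of all genes were, and 1 lower, where 8.95% of all genes were. Tretinoin+ICT against PBS had 8 higher, where 25.7% of all genes were. These 3 comparisons share the PBS tumours. None of the 10 genes passed a log2 fold change of 1 as well, the added threshold of the study's methods, in any comparison. That pair of thresholds was passed by 2.28% of all genes for ICT, 1.49% for tretinoin and 5.45% for tretinoin+ICT in the upward direction.

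Tretinoin+ICT against ICT asks what tretinoin adds, and there 2 genes, Tlr2 and Tlr7, were lower and none was higher. Of all genes tested 0.422% were called lower and 1.57% higher, and 0.366% were higher with a log2 fold change of at least 1. Tretinoin+ICT against tretinoin had 4 genes higher (12.3% of all genes, 1.87% with the added threshold). ICT against tretinoin had 3 genes higher (4.13% of all genes, 0.636% with the added threshold). The median log2 fold change over all genes lay between -0.02 and 0.01 in every comparison.

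**Figure D2:**
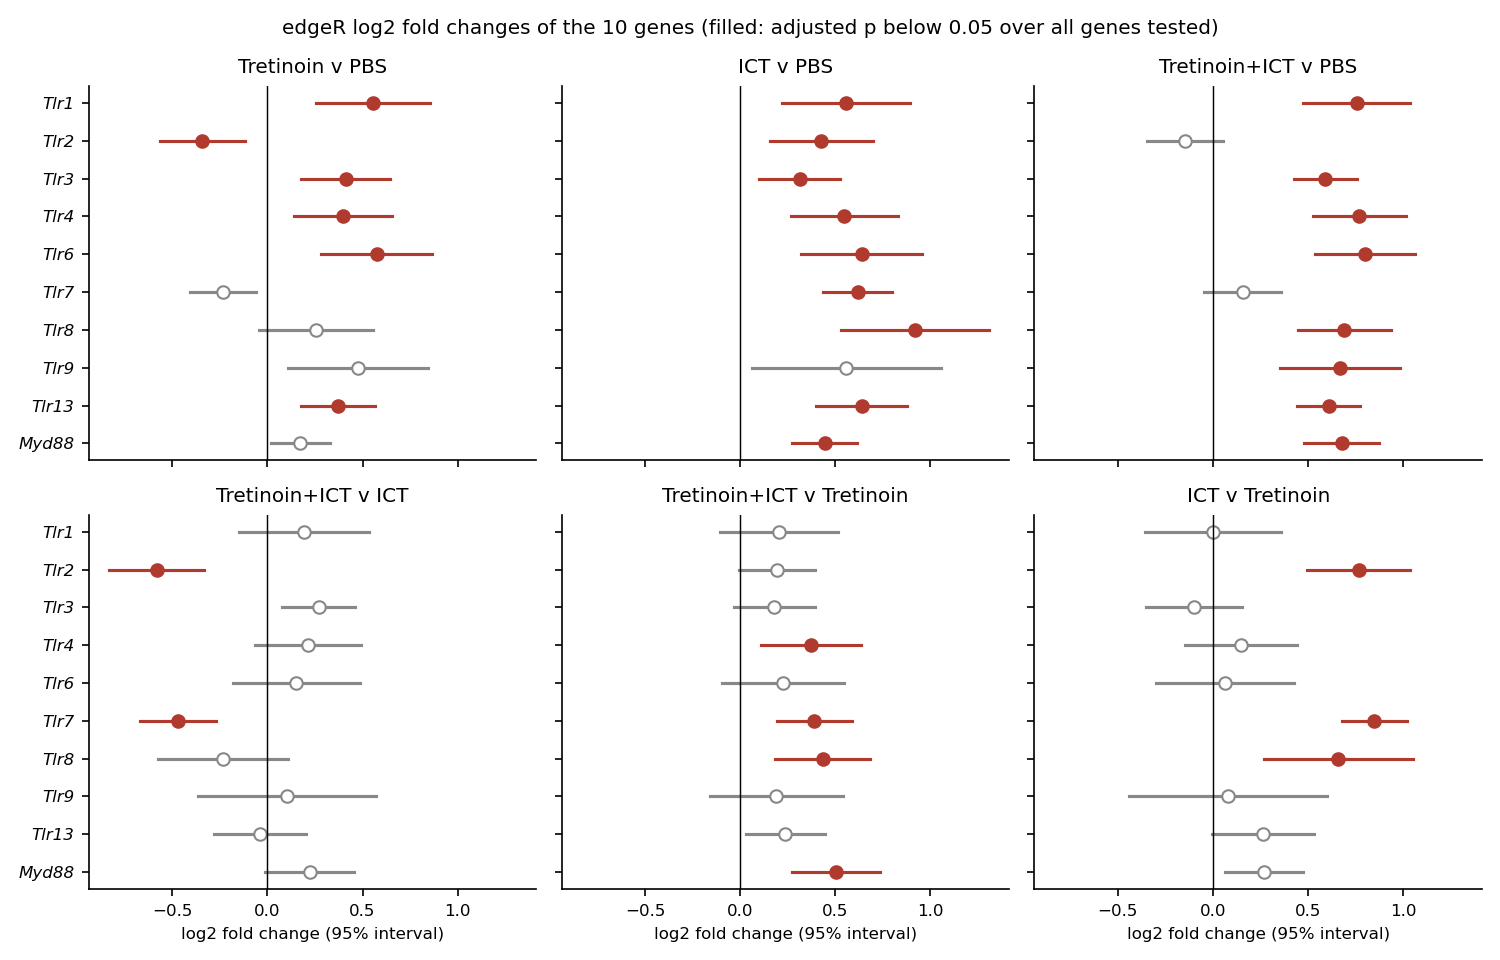
Log2 fold change of each gene with its 95% interval (horizontal axis) in 6 comparisons of treatments, filled where the adjusted p was below 0.05. Tlr2 lies at -0.34 for tretinoin against PBS and at -0.58 for tretinoin+ICT against ICT, while Tlr4 lies at 0.40 and 0.21.

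Tlr2 encodes the surface receptor that pairs with TLR1 or TLR6 to read bacterial lipopeptides. Its CPM ran from 38.99 to 72.5 (median 46.8) in PBS and from 37.1 to 86.9 (median 66.0) in ICT tumours. With tretinoin it ran from 31.1 to 52.6 (median 37.2), and with tretinoin+ICT from 35.9 to 53.7 (median 43.2). The groups overlapped, but 8 of 10 ICT tumours lay above every tretinoin tumour, and all 10 tretinoin+ICT tumours lay below the ICT median. Tlr2 rose with ICT against PBS (log2 fold change 0.43 ± 0.13 SE, adjusted p=0.0251), a call that was lost without ICT tumours 63 and 82 (0.31, adjusted p=0.118) and with no filter on low counts (adjusted p=0.0564). It fell with tretinoin against PBS (-0.34 ± 0.11, adjusted p=0.0295) and with tretinoin+ICT against ICT (-0.58 ± 0.12, adjusted p=0.00963). It was higher in ICT than in tretinoin tumours, by 0.77 ± 0.13 (adjusted p=0.000581). Tretinoin+ICT and PBS tumours differed by -0.15, with an interval from -0.35 to 0.05, and by -0.0723 without PBS tumour 14. Tretinoin+ICT and tretinoin tumours differed by 0.20 (adjusted p=0.141), and by 0.26 without tretinoin tumour 33 (adjusted p=0.0246).

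The partners of TLR2 did not follow it downwards. Tlr1 had a median of 42.2 CPM in PBS (range 33.6 to 66.7) and 60.3 CPM in tretinoin tumours (44.98 to 104). In ICT tumours its median was 63.2 CPM (34.5 to 95.6), and in tretinoin+ICT tumours 70.8 CPM (52.8 to 100.2). Tlr1 rose with tretinoin (0.55 ± 0.14, adjusted p=0.0111), with ICT (0.56 ± 0.16, adjusted p=0.0203) and with tretinoin+ICT against PBS (0.76 ± 0.14, adjusted p=0.00013). The ICT value was 0.39 without tumours 63 and 82 (adjusted p=0.098). Tlr6 had medians of 20.7 CPM in PBS, 28.8 in tretinoin, 32.98 in ICT and 37.2 in tretinoin+ICT tumours. It rose against PBS by 0.57 ± 0.14, 0.64 ± 0.15 and 0.80 ± 0.13 in that order of treatments. Adding tretinoin to ICT changed Tlr1 by 0.19 (interval -0.15 to 0.53) and Tlr6 by 0.15 (-0.18 to 0.49), and neither passed the test. Without ICT tumours 63 and 82 these values were 0.35 (adjusted p=0.109) and 0.31 (adjusted p=0.15).

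Tlr4 encodes the lipopolysaccharide receptor. The CPM of Tlr4 ran from 34.7 to 71.3 (median 48.2) in PBS, 51.7 to 88.5 (58.1) in tretinoin, 48.9 to 113 (70.5) in ICT and 64.6 to 109 (80.6) in tretinoin+ICT tumours. Of the 10 tretinoin+ICT tumours, 8 lay above every PBS tumour. Tlr4 rose against PBS by 0.40 ± 0.12 with tretinoin, 0.55 ± 0.14 with ICT and 0.77 ± 0.12 with tretinoin+ICT. The tretinoin call was lost without tretinoin tumour 33 (0.33, adjusted p=0.0646) and with no filter on low counts (adjusted p=0.0707). Tlr4 was also higher in tretinoin+ICT than in tretinoin tumours (0.37 ± 0.13, adjusted p=0.0421, or 0.0675 with no filter on low counts). Tretinoin+ICT and ICT tumours differed by 0.21 in Tlr4, and by 0.32 without ICT tumours 63 and 82 (adjusted p=0.0756).

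Tlr7, an endosomal receptor for RNA rich in guanosine and uridine, was with Tlr2 the other gene lower when tretinoin was added to ICT. Its CPM ran from 25.5 to 40.9 (median 31.2) in PBS, 23.2 to 31.7 (27.3) in tretinoin, 41.5 to 61.2 (47.6) in ICT and 26.4 to 45.5 (35.9) in tretinoin+ICT tumours. All 10 ICT tumours lay above every PBS and every tretinoin tumour, and 8 of 10 tretinoin+ICT tumours lay below every ICT tumour. Tlr7 rose with ICT against PBS (0.62 ± 0.09, adjusted p=0.000207) and was lower in tretinoin+ICT than in ICT tumours (-0.47 ± 0.10, adjusted p=0.00853). With tretinoin against PBS it differed by -0.23 ± 0.08 without passing the test (adjusted p=0.0538), and DESeq2 gave an adjusted p of 0.0385. It was higher in ICT than in tretinoin tumours by 0.85 ± 0.08 (adjusted p=6.57e-07), and in tretinoin+ICT than in tretinoin tumours by 0.39 ± 0.10 (adjusted p=0.0098).

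Tlr8, its neighbour on the X chromosome, had the largest fold change of the 10 genes with ICT. Its CPM ran from 25.3 to 60.2 (median 35.6) in PBS, 32.5 to 67.1 (43.8) in tretinoin, 46.8 to 138 (61.2) in ICT and 49.3 to 75.5 (61.6) in tretinoin+ICT tumours. All 10 ICT tumours exceeded the PBS median and 5 exceeded every PBS tumour. Tlr8 rose with ICT by 0.92 ± 0.19 (adjusted p=0.00363), and by 0.67 without tumours 63 and 82. It rose with tretinoin+ICT by 0.69 ± 0.12 against PBS and 0.43 ± 0.12 against tretinoin (adjusted p=0.0168). It differed by 0.26 with tretinoin against PBS (interval -0.04 to 0.56, adjusted p=0.207), by 0.35 without PBS tumour 14 (adjusted p=0.0475) and by 0.16 without tretinoin tumour 33 (adjusted p=0.421). Tretinoin+ICT and ICT tumours differed by -0.23 in Tlr8, and by 0.0122 without ICT tumours 63 and 82. It was higher in ICT than in tretinoin tumours (0.66 ± 0.19, adjusted p=0.031), a call lost without tumours 63 and 82 (0.41, adjusted p=0.0705) and with no filter on low counts (adjusted p=0.0671).

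Tlr13, a receptor for bacterial ribosomal RNA that humans lack, had the highest mean RPKM of the receptors in every group. Its CPM ran from 72.7 to 108 (median 76.7) in PBS, 84.3 to 141 (106) in tretinoin, 75.9 to 184 (126) in ICT and 96.6 to 143 (123) in tretinoin+ICT tumours. It rose against PBS by 0.37 ± 0.09 with tretinoin, 0.64 ± 0.11 with ICT and 0.61 ± 0.08 with tretinoin+ICT (adjusted p=0.00867, 0.00147 and 4.74e-06). Tretinoin+ICT and ICT tumours differed by -0.04, with an interval from -0.28 to 0.20, and by 0.0602 without ICT tumours 63 and 82.

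Tlr3, the receptor for viral RNA duplexes that signals without MyD88, had medians of 40.7 CPM in PBS (30.7 to 53.2) and 50.4 CPM in tretinoin tumours (41.98 to 78.5). Its medians were 54.1 CPM with ICT (32.3 to 61.6) and 62.7 CPM with tretinoin+ICT (51.02 to 70.1), and 9 of 10 tretinoin+ICT tumours lay above every PBS tumour. It rose by 0.41 ± 0.11 with tretinoin (adjusted p=0.0147), 0.31 ± 0.10 with ICT (adjusted p=0.0355) and 0.59 ± 0.08 with tretinoin+ICT (adjusted p=7.17e-06). Without tumours 63 and 82 the ICT call was lost (0.26, adjusted p=0.132), as it was with no filter on low counts (adjusted p=0.0639). Adding tretinoin to ICT changed Tlr3 by 0.27 ± 0.09 (adjusted p=0.147), and by 0.32 without those tumours (adjusted p=0.0337). How reads in the exon bases shared with Gm45542 on the other strand were counted is not known, since the strand mode is not given.

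Tlr9, the receptor for unmethylated CpG DNA, had the largest coefficient of variation of the 10 genes in PBS, tretinoin and ICT tumours, though not in tretinoin+ICT tumours, where those of Tlr1 and Tlr6 were larger. Its CPM ran from 14.6 to 39.3 (median 21.4) in PBS, 21.1 to 43.8 (28.3) in tretinoin, 13.8 to 62.03 (28.4) in ICT and 19.5 to 45.6 (35.8) in tretinoin+ICT tumours. The ICT range enclosed that of each other group. Tlr9 rose in tretinoin+ICT against PBS (0.67 ± 0.15, adjusted p=0.00117). Against PBS it differed by 0.48 ± 0.18 with tretinoin (adjusted p=0.0628) and by 0.56 ± 0.24 with ICT (adjusted p=0.0977). Without PBS tumour 14, the highest of its group, these became 0.60 (adjusted p=0.00879) and 0.68 (adjusted p=0.0362). That they rose was set by this choice, so these p-values are no independent check. Without ICT tumours 63 and 82 the ICT difference was 0.23 (adjusted p=0.482). Tretinoin+ICT and ICT tumours differed by 0.10 in Tlr9, and by 0.43 without those ICT tumours (adjusted p=0.0944).

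Myd88 was called higher with ICT and with the combination. In CPM it ran from 47.7 to 63.6 (median 51.4) in PBS, 48.7 to 71.5 (58.4) in tretinoin, 51 to 87.6 (72.2) in ICT and 67.7 to 110 (77.6) in tretinoin+ICT tumours. All 10 tretinoin+ICT tumours lay above every PBS tumour. The log2 fold change against PBS was 0.44 ± 0.08 with ICT (adjusted p=0.00186) and 0.68 ± 0.09 with tretinoin+ICT (adjusted p=9.42e-06). With tretinoin it was 0.17 ± 0.08 (adjusted p=0.105), or 0.20 without PBS tumour 14 (adjusted p=0.0475), the highest PBS tumour, whose removal could only raise the value. Myd88 was higher in tretinoin+ICT than in tretinoin tumours by 0.50 ± 0.11 (adjusted p=0.00539), and differed from ICT tumours by 0.22 (interval -0.01 to 0.46). ICT and tretinoin tumours differed by 0.27 (adjusted p=0.0897), and by 0.31 without tretinoin tumour 33 (adjusted p=0.0468). Its 290 bases shared with Acaa1a carry the same doubt about strand.

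The names of the tumours fall into 2 series per treatment, by their first digit, and no series holds more than 1 treatment, so series and treatment cannot be told apart within a series. Each comparison has 4 pairs of series, which share their tumours and are not independent, so the range over them is a description. For tretinoin+ICT against ICT it ran for Tlr2 between -0.74 and -0.36 and Tlr7 between -0.61 and -0.34 on the log2 CPM scale. For Tlr13 it ran between -0.11 and 0.08. For ICT against PBS it ran from 0.56 to 0.69 in Tlr7 and from 0.85 to 0.89 in Tlr8.

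Whether the effect of tretinoin differed with and without ICT was tested as an interaction over all 39 tumours. None of the 10 genes passed the test, while 0.0401% of all genes were called higher and 0.267% lower. At an unadjusted p below 0.05 were Tlr13 (-0.41 ± 0.15, adjusted p=0.353) and Tlr8 (-0.49 ± 0.23, adjusted p=0.483), and DESeq2 called none of the 10 either. For 9 of 10 genes the value was below 0, the exception being Myd88 at 0.05 (interval -0.23 to 0.33). The median over all genes was -0.02, and the 10 genes come from the same tumours, so their signs are not independent. For Tlr2 the interaction was -0.24 (-0.58 to 0.10) and for Tlr7 -0.24 (-0.50 to 0.03). Without ICT tumours 63 and 82 it was -0.23 for Tlr8 and -0.11 for Tlr2, and without tretinoin tumour 33 it was -0.15 for Tlr2. The value for Myd88 lay between 0.02 and 0.13 on leaving out the named tumours with the highest levels.

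The make-up of the receptors was followed as each gene's share of the summed RPKM of the 9 receptors within a tumour. Tlr2 took 16.9 ± 0.54% in PBS and 15.2 ± 1.62% in ICT tumours, against 11.2 ± 1.54% in tretinoin and 10.6 ± 1.18% in tretinoin+ICT tumours. The lowest PBS share was 15.998% and the highest tretinoin share 14.4%, so that these groups did not overlap, and neither did ICT (lowest 13.2%) and tretinoin+ICT (highest 12.7%). In CPM both pairs of groups overlapped for Tlr2, and its share also depends on the levels of the other receptors. No figure over all genes can be set beside this, since only the 9 receptors enter the share. Tlr7 took 8.28 ± 0.53% in PBS, 5.94 ± 0.96% in tretinoin, 8.71 ± 1.56% in ICT and 6.46 ± 1.46% in tretinoin+ICT tumours. Tlr1 moved the other way, from 13.6 ± 1.22% in PBS to 16.4 ± 2.17% in tretinoin tumours, and from 13.2 ± 1.13% in ICT to 15.7 ± 1.98% in tretinoin+ICT tumours. The share of Tlr13 stayed between 19.8% and 21.1% on average. The shares sum to a whole within a tumour and were not tested.

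**Figure D3:**
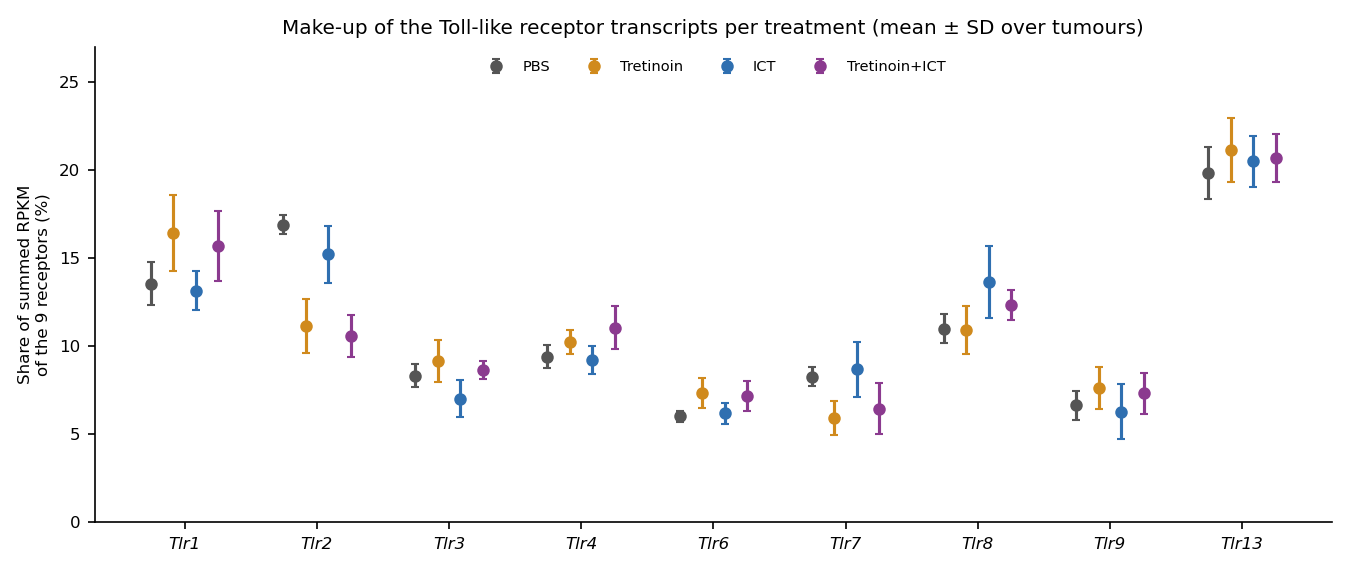
Share of each receptor in the summed RPKM of the 9 receptors (vertical axis, percent), as mean ± SD over the tumours of each treatment. Tlr2 lies at 16.9% and 15.2% without tretinoin and at 11.2% and 10.6% with it.

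Markers of the cells that carry these receptors moved with treatment too. Of 9 macrophage and monocyte markers found, all 9 were called higher with ICT against PBS, 5 with tretinoin, and 9 with tretinoin+ICT. The shares over all genes were 14.1%, 11.5% and 25.7%. Between tretinoin+ICT and ICT none passed the test, where 1.57% of all genes were called higher, and all 9 values were above 0 (median 0.24). Their summed CPM ran from 2271 to 3866 in PBS, 2627 to 5541 in tretinoin, 2382 to 5887 in ICT and 3301 to 5662 in tretinoin+ICT tumours. Summed neutrophil markers ran from 37.0 to 93.4 CPM in PBS and from 53.6 to 224 CPM in ICT tumours, although Ly6g was at 0 in 11 tumours and at most 0.452 CPM in the rest. Of 4 markers of conventional dendritic cells, Clec9a rose with tretinoin (1.199 ± 0.21, adjusted p=0.000481), ICT (0.86 ± 0.25, adjusted p=0.0206) and tretinoin+ICT (1.69 ± 0.25) against PBS, and Xcr1 with tretinoin+ICT (0.90 ± 0.20), while Flt3 and Zbtb46 were not called in these comparisons. Between tretinoin+ICT and ICT tumours none of the 4 was called. The sum of these 4 markers ran from 24.9 to 49.97 CPM in PBS, 34.6 to 62.5 in tretinoin, 33.6 to 92.8 in ICT and 36.5 to 100.03 in tretinoin+ICT tumours. Of 3 markers of plasmacytoid dendritic cells none was called with tretinoin or ICT, and Klk1 was with tretinoin+ICT against PBS (0.69 ± 0.19, adjusted p=0.00527). Cd3d, Cd3e and Cd3g of T cells were not called in any comparison. The part of cell numbers in the receptor changes was not tested.

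Taken against the macrophage and monocyte sum of the same tumour, the ICT difference from PBS on the log2 scale was 0.32 for Tlr8 and between -0.25 and 0.07 for the other 9 genes. For tretinoin against PBS the same ratio was -0.73 for Tlr2 and -0.61 for Tlr7, and between -0.22 and 0.16 for the other 8 genes. For tretinoin+ICT against ICT it was -0.77 for Tlr2 and -0.69 for Tlr7, and between -0.38 and 0.07 for the rest. The log2 ratio of Tlr2 to the marker sum lay between -5.90 and -5.64 in PBS and between -6.72 and -6.16 in tretinoin tumours, without overlap. Between ICT (-6.18 to -5.58) and tretinoin+ICT tumours (-7.04 to -6.27) there was no overlap either. The sum itself was 0.39 higher in tretinoin than in PBS tumours on the log2 scale, and 0.22 higher in tretinoin+ICT than in ICT tumours. The share of all genes whose ratio to the sum did not overlap is not given here. Taken against Ptprc of the same tumour, the tretinoin difference from PBS was -0.47 for Tlr2, -0.36 for Tlr7 and between 0.03 and 0.42 for the other 8 genes. The ICT difference from PBS was then 0.40 for Tlr8 and between -0.17 and 0.15 for the rest, and that between tretinoin+ICT and ICT was -0.79 for Tlr2, -0.71 for Tlr7 and between -0.40 and 0.05 for the rest. Against Ptprc both pairs of groups overlapped for Tlr2, at -2.57 to -2.11 in PBS and -3.24 to -2.38 in tretinoin tumours, and at -3.16 to -1.97 in ICT and -3.63 to -2.79 in tretinoin+ICT tumours.

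**Figure D4:**
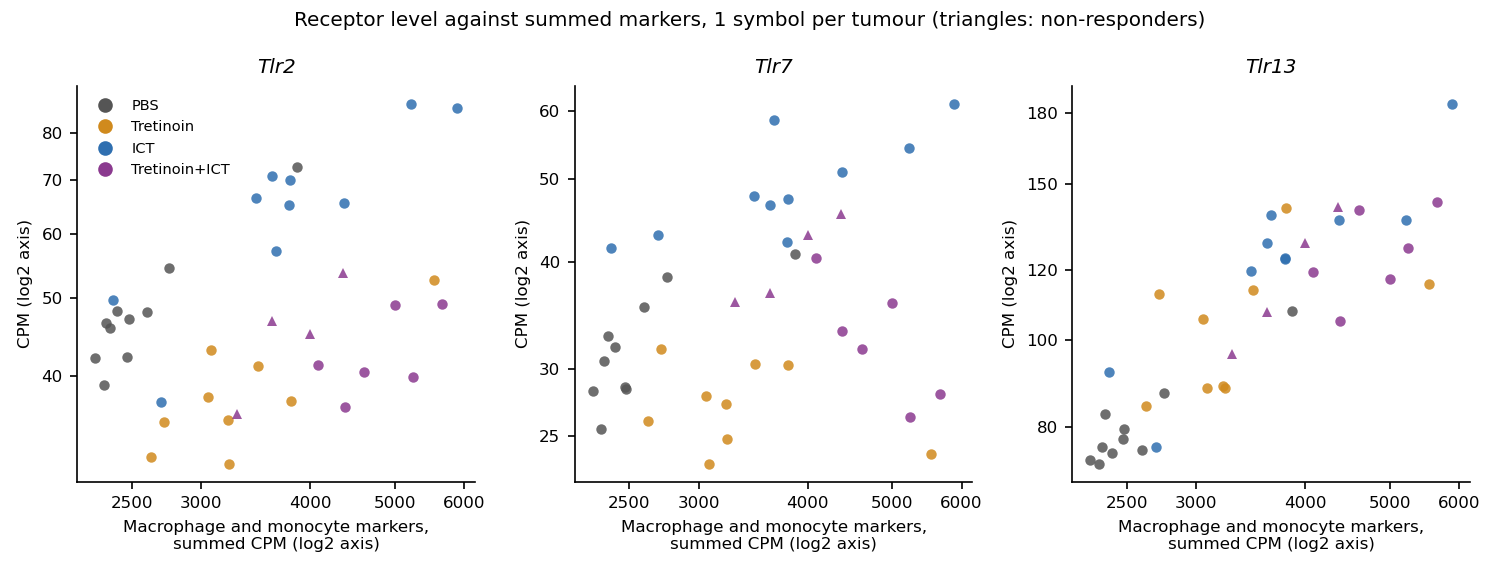
CPM of Tlr2, Tlr7 and Tlr13 (vertical axes, log2 scale) against the summed CPM of 9 macrophage and monocyte markers (horizontal axis, log2 scale), with 1 symbol per tumour. For Tlr2 the tretinoin and tretinoin+ICT tumours lie below PBS and ICT tumours of similar marker sum, and for Tlr13 the groups lie along 1 band.

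In the tretinoin+ICT group, responders and non-responders were compared on the tumour resected before the outcome was known. None of the 10 genes was called, and of all genes tested 0% were called higher and 0% lower, while 3302 of 14604 genes had an unadjusted p below 0.05. Those shares are from edgeR. DESeq2 called 1 of the 10, and the share of all genes that it called is not given here. Tlr1 stood at 53.7, 73.7, 57.5 and 52.8 CPM in the 4 non-responders and between 64.6 and 100.2 CPM (median 84.2) in the 6 responders, 4 of which lay above every non-responder. Its log2 fold change was 0.48 ± 0.14 (interval 0.18 to 0.78, edgeR adjusted p=0.0933, DESeq2 adjusted p=0.0246). Tlr7 went the other way, at 36.7, 45.5, 42.9 and 35.9 CPM in non-responders and between 26.4 and 40.5 CPM (median 32.4) in responders. For 5 of 6 responders Tlr7 lay below every non-responder, with a log2 fold change of -0.29 ± 0.12 (interval -0.55 to -0.02, adjusted p=0.185).

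Tlr4 stood at 64.6, 78.8, 74.3 and 73.2 CPM in non-responders and between 67.5 and 109 CPM (median 96.4) in responders, 5 of which exceeded every non-responder (0.37 ± 0.13, adjusted p=0.118). Without responder tumour 43 the calls changed, and Tlr1 (0.51, adjusted p=0.0322) and Tlr7 (-0.38, adjusted p=0.0438) then passed the test. The share of all genes called without that tumour is not given here. For Tlr8, Tlr6 and Myd88 the differences were 0.26, 0.39 and 0.29, and for Tlr2, Tlr3, Tlr9 and Tlr13 between -0.07 and 0.19. On leaving out each tumour in turn, Tlr9 ran from 0.00348 to 0.36. Within name series 2 (2 responders, 3 non-responders) Tlr1 differed by 0.46 and Tlr7 by -0.30 on the log2 CPM scale, and within series 4 (4 responders, 1 non-responder) by 0.59 and -0.19. Summed macrophage and monocyte markers ran from 4085 to 5662 CPM in responders and from 3301 to 4363 CPM in non-responders. Per that sum, Tlr7 differed by -0.65, Tlr2 by -0.42 and Tlr1 by 0.12 on the log2 scale. The log2 ratio of Tlr7 to the sum lay between -7.66 and -6.66 in responders and between -6.62 and -6.52 in non-responders, and that of Tlr2 between -7.04 and -6.63 and between -6.52 and -6.27, so that neither overlapped. The sum itself was 0.34 higher in responders on the log2 scale, while Tlr2 by itself differed by -0.08. The share of all genes whose ratio to the sum did not overlap is not given here. Per Ptprc the differences were -0.75 for Tlr7, -0.51 for Tlr2 and 0.03 for Tlr1, and both ratios overlapped, with Tlr7 at -4.39 to -3.09 in responders and -3.35 to -2.86 in non-responders, and Tlr2 at -3.63 to -3.06 and -3.11 to -2.79. These ratios were not tested.

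**Figure D5:**
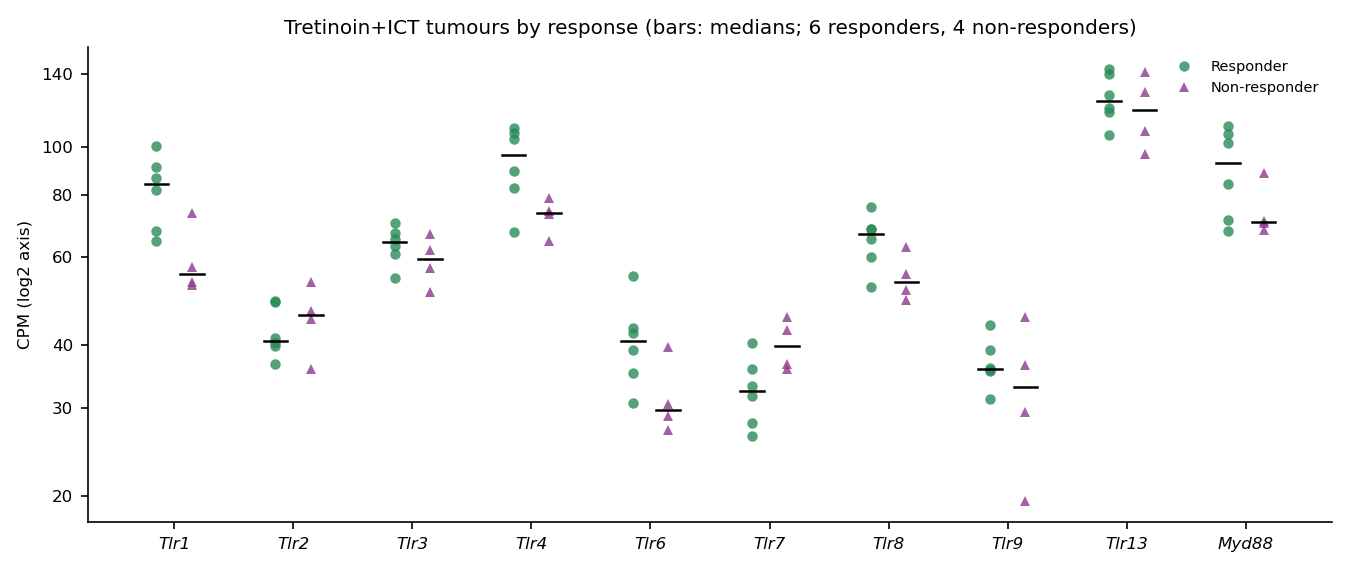
CPM of each gene (vertical axis, log2 scale) in the 10 tretinoin+ICT tumours, with 6 responders as circles, 4 non-responders as triangles and bars at the medians. Responders have the higher median for Tlr1 (84.2 against 55.6 CPM) and the lower one for Tlr7 (32.4 against 39.8 CPM).

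Across the 39 tumours, after the mean of each treatment was taken out, the genes varied together. The 45 pairs of members had r between 0.02 and 0.91 with a median of 0.75, as a description over variance-stabilised values in which all genes of a tumour share its library. The closest pair was Tlr1 and Tlr6 (r = 0.91), which share sequence. The loosest was Tlr7 and Myd88 (r = 0.02), and Tlr7 had r of at most 0.53 with any other member. Tlr7 also followed Ptprc least (r = 0.32), whereas Tlr6 and Tlr1 followed it most (r = 0.93 and 0.92).

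The 3 genes most like each member, out of 12124 genes whose log2 CPM averaged 1 or more, were listed. Tlr3 ran with Samd9l, Ifih1 and Trim30a (r from 0.93 to 0.94), of which Ifih1 encodes the cytosolic RNA sensor MDA5. Tlr6 ran with Trafd1, C130026I21Rik and C1s1 (r from 0.96 to 0.97) and Tlr1 with Il10ra, Cybb and Entpd1 (about 0.95), where Cybb encodes the NADPH oxidase subunit of phagocytes. Tlr13 ran with Ms4a6c, Ms4a6b and the kinase gene Lyn (r from 0.88 to 0.90), and Tlr4 with Atp8a1, Plek and Zc3h7a (0.92 to 0.93). Tlr2 ran with Klra2, AI504432 and Naip2 (0.86 to 0.88), Tlr8 with Synj1, Ifnar1 and Ptprj (0.91 to 0.92), and Tlr9 with Spata13, Fyb and Lpin2 (0.92 to 0.94). Myd88 ran with Mvp, Lap3 and Naaa (0.92 to 0.94). For Tlr7 the closest were Ssh2, Rsbn1 and Zfyve16, at r of only 0.72 to 0.76.

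The rest of the pathway was described from lists of 69 genes, of which 59 could be tested. With ICT against PBS 28 were higher and 3 lower, with tretinoin 12 higher and 2 lower, and with tretinoin+ICT against PBS 38 higher and 8 lower. The shares over all genes, in the same order, were 14.1% higher and 7.15% lower, 11.5% and 8.95%, and 25.7% and 24.5%. For tretinoin+ICT against ICT 1 of the 59 was called higher, where 1.57% of all genes were, and none lower, where 0.422% were, which is near the background. That gene was Irak2, which encodes a kinase downstream of MyD88 and was 0.80 ± 0.16 higher (adjusted p=0.00963). Irak2 also rose with tretinoin against PBS (0.92 ± 0.11). Among the partners of the receptors, Unc93b1, whose product carries the endosomal receptors from the endoplasmic reticulum, rose by 0.66 ± 0.14 with tretinoin and 0.75 ± 0.19 with ICT. Ly96, which encodes the MD-2 partner of TLR4, rose by 0.39 ± 0.09 with ICT (adjusted p=0.00553). Cd180 had the largest called change of these partners with ICT (0.86 ± 0.26, adjusted p=0.0259).

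Of 15 adaptors and kinases tested, 6 were higher and 1 lower with ICT, and 6 higher with tretinoin. For this and the next lists, 14.1% of all genes were higher and 7.15% lower with ICT, and 11.5% higher with tretinoin. Ticam2, which encodes the adaptor that links TLR4 to TRIF, rose by 1.07 ± 0.20 with ICT and 0.86 ± 0.16 with tretinoin. Ikbke had the largest called change of this list with tretinoin (1.18 ± 0.15, adjusted p=1.3e-05). Of 8 transcription factors 6 rose with ICT, among them Irf5 (0.98 ± 0.19) and Irf8 (0.96 ± 0.24), and with tretinoin Irf8 (0.89 ± 0.20) and Irf5 (0.78 ± 0.15) did. Of 7 inhibitors 3 rose with ICT, led by Tnfaip3, which encodes the brake on NF-kB named A20 (0.96 ± 0.20), and 1 with tretinoin, Tnfaip3 as well (0.90 ± 0.13), a count near the 11.5% of all genes.

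Of 15 transcripts that Toll-like receptors are known to induce, 7 rose with ICT against PBS, where 14.1% of all genes did. They were Nos2 by 3.01 ± 0.64, Acod1 by 2.18 ± 0.57, Cxcl2 by 1.85 ± 0.31 and 4 others. With tretinoin 2 of the 15 rose, Acod1 (1.58 ± 0.54) and Cxcl2 (0.89 ± 0.25), where 11.5% of all genes did. The 1 that fell, where 8.95% of all genes did, was Ptgs2, which encodes cyclooxygenase-2. It fell by 0.67 on the log2 scale (SE 0.14, adjusted p=0.00288). Both counts are near the shares over all genes. Ptgs2 was higher in ICT than in tretinoin tumours by 0.82 ± 0.15 (adjusted p=0.00138). Among 7 endogenous ligands 2 rose and 2 fell with ICT, with S100a8 and S100a9 higher by 1.13 ± 0.24 and 1.24 ± 0.26. All 3 neutrophil markers tested were called higher in the same comparison, and what part they had in this was not tested. Hmgb1 fell by 0.25 on the log2 scale (SE 0.06). These lists are described by counts only.

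The 3 remaining Toll-like receptor genes in the table were scarce. Tlr5, the flagellin receptor, had a mean of 0.99 RPKM in PBS tumours and passed the test in no comparison. Tlr11 went from a median of 5.99 CPM in PBS (3.802 to 9.27) to 10.2 CPM in ICT tumours (6.16 to 23.1) and rose by 0.97 ± 0.23 (adjusted p=0.00708). Tlr12, which with TLR11 reads profilin of protozoa, went from a median of 1.67 CPM in PBS (0.434 to 8.17) to 5.15 CPM in tretinoin (1.52 to 23.01) and 10.9 CPM in tretinoin+ICT tumours (3.11 to 29.8). Its log2 fold change was 1.86 ± 0.52 with tretinoin (adjusted p=0.017), 1.79 ± 0.57 with ICT (adjusted p=0.0309) and 2.69 ± 0.45 with tretinoin+ICT (adjusted p=8.81e-05), above a log2 fold of 1 in each.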

How the data were processed

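RNA of 39 AB1-HA tumours was sequenced as single-end reads of 100 bases, which the authors aligned with HISAT2 2.0.4 to the mouse genome they name mm11. Reads on genes were counted with SummariseOverlaps, and the deposited values are raw counts of the authors, whole and not normalised. Strand mode and treatment of multiply aligned reads are not given in the sources used here. Identifiers were matched to GENCODE M21 on GRCm38 for positions and exon lengths (92.55% with their version), and Tlr13 was matched without its version. R 4.3.3 with edgeR 4.0.16 and DESeq2 1.42.0 and Python 3.11.15 were used. For each comparison the tumours of its groups were normalised by TMM, filtered by filterByExpr and tested by edgeR's robust quasi-likelihood test, with Benjamini-Hochberg adjustment over all genes tested. Standard errors were taken as the size of the log2 fold change over the root of F, and intervals cover 95%. CPM and RPKM used TMM-scaled totals over all tumours and the union of exons, and log2 CPM a prior count of 2. Totals ran from 14033046 to 37951183 counts per tumour. The method was tested on simulated data. The genes and lists were chosen with earlier results of these data known. All 10 members were tested in every comparison, though not every value is printed. From each list up to 4 called genes with the largest change were selected, and only some of these are named. Alternatives were DESeq2, its size factors, other filters on low counts, the fold minimum, a shared fit and left-out tumours.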

Additional observations from a re-analysis of the deposited data

Results flagged for a closer look

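Dixon's test of the highest and lowest tumour was run on each of the 10 genes in each of 6 groups, 60 in all, and chance flags about 1 in 20. It picked out 5 values. Tlr9 and Tlr13 were high in PBS tumour 14, at 39.3 against 23.5 CPM in the next tumour (gap over range 0.521) and at 108 against 87.2 CPM (0.540). Tlr3 was low in ICT tumour 85, at 32.3 against 44.2 CPM (0.483). Tlr9 was low in tretinoin+ICT tumour 44, a non-responder, at 19.5 against 29.4 CPM (0.483). Myd88 was high in non-responder tumour 23 among the 4 non-responders, at 88.4 against 70.8 CPM (0.849).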

How the results depend on the processing

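With the added log2 fold minimum of 1 the count of called members was 0 in every comparison, from 6 for tretinoin against PBS, 9 for ICT against PBS, 2 and 4 for tretinoin+ICT against ICT and tretinoin, 8 for tretinoin+ICT against PBS and 3 for ICT against tretinoin, since no fold reached that size. Under the other alternatives the counts ran from 5 to 9, 6 to 10, 2 to 3, 3 to 5, 8 to 8 and 2 to 4 in the same order, and 0 for the interaction. For responders against non-responders the count was 0, 1 with DESeq2, and 0 to 2 on leaving out each tumour, with 2 without tumour 43. The cause was not tested, and the shares of all genes called under these alternatives are not given here. Of the single-gene values, 641 kept direction and side of the threshold, 13 came to pass it, 10 no longer passed it and 6 changed sign, none of them a called value. Without ICT tumours 63 and 82, tretinoin+ICT against ICT became 0.0122 for Tlr8 and 0.0602 for Tlr13, and ICT against tretinoin became -0.16 for Tlr1, -0.0915 for Tlr6 and -0.24 for Tlr9. With name series as a block, Tlr2 in responders against non-responders became 0.0268. No paired analysis was possible because the tumour numbers are names and pair no tumours across groups.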
